A study of Mus musculus with 8 samples.

Results

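The replication-dependent histone genes were followed in macrophages grown from mouse bone marrow, at the level of RNA still being transcribed, over the first hours of exposure to lipopolysaccharide (LPS), a component of the outer membrane of Gram-negative bacteria. The genes were taken by name: every entry of the deposited expression table whose symbol starts with Hist1h, Hist2h, Hist3h or Hist4h, which gave 68 of 22753 genes. They comprised 6 genes of the linker histone H1 and 18 of H2A, 19 of H2B, 12 of H3 and 13 of H4, the core histones. In mm9, the build of the deposited table, 54 of them (the Hist1 genes) lay on chromosome 13 between bases 21807632 and 24026720, 10 (Hist2) on chromosome 3 between 96023839 and 96074115, 3 (Hist3) on chromosome 11 between 58762413 and 58770176, and 1 (Hist4h4) on chromosome 6 between 136750074 and 136752952.

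The cells were grown from bone marrow of male C57BL/6 mice aged 8 weeks and plated in serum-free medium. They received 100 ng/ml LPS for 20, 60 or 180 min, or were taken untreated at 0 min, and each of the 4 times had 2 biological replicates, so that 8 libraries were compared. The assay was GRO-seq, in which isolated nuclei extend their engaged RNA polymerases with a tagged nucleotide and the tagged RNA is captured and sequenced, so that it reads transcription in progress and not the pool of finished mRNA. A cell line or a single clone was not used; whether the replicates came from separate animals is not given in the sources used here, and p-values then measure the spread between these libraries.

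Replication-dependent histone genes supply the bulk of the histone protein that packages new DNA, and they are transcribed mainly while cells replicate their DNA. Typically they have no introns, sit in clusters, and their mRNAs end in a stem-loop in place of a poly(A) tail. NPAT drives their transcription, and SLBP with the U7 small nuclear ribonucleoprotein directs the cut that forms the stem-loop end. Because GRO-seq does not select for poly(A) tails, these transcripts can be read by it. The rule by name also took in entries with long listed spans, such as Hist1h2be (37454 bases) and Hist1h2bc (8281 bases), and Hist4h4, which stands alone on its chromosome. Whether each of the 68 entries has the traits of the class was not tested.

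Many H2A and H2B genes face away from each other across a short shared stretch of DNA, and the stretches of the pairs that the results turn on are shown first. The sequences come from RefSeq promoter tables of build GRCm38.p6, a later build than the mm9 coordinates above; 67 of the 68 genes matched by accession and 62 had a promoter sequence. Capitals mark exact matches, on either strand, to the CCAAT box (CCAAT or ATTGG), the octamer bound by OCT1 (ATTTGCAT or ATGCAAAT), the TATA box (TATAAA or TTTATA) and the core of the H4 promoter element bound by HINFP (GGTCCG or CGGACC). The first 3 lines run from the start of the gene on the minus strand to the start of the gene on the plus strand (chr13:23571221-23571399, plus strand; chr11:58954513-58954684, plus strand; chr3:96220881-96221071, plus strand).
Hist1h2ae to Hist1h2bg: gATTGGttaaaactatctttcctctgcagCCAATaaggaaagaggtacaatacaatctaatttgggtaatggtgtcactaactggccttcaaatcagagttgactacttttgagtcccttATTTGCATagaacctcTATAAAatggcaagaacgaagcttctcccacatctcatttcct
Hist3h2bb-ps to Hist3h2a: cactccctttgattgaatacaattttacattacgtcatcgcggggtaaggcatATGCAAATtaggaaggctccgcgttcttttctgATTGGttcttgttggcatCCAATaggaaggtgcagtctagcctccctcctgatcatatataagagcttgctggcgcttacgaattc
Hist2h2ac to Hist2h2be: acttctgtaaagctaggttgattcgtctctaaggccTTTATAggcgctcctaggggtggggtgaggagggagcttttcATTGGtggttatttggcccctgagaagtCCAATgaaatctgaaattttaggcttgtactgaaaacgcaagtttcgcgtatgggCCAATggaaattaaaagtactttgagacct

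The next stretches are the 150 bases before the start of a gene, given on its strand as examples. The first is that of Hist2h2bb (chr3:96269550-96269699, plus strand), the H2B gene with the highest level. Hist1h4d (chr13:23581418-23581567, plus strand) and Hist1h4i (chr13:22041363-22041512, minus strand) are H4 genes, and Hist1h1c (chr13:23738657-23738806, plus strand) is an H1 gene. Hist1h4d holds a CCAAT box match, which was present before 3 of 12 H4 genes.
Hist2h2bb: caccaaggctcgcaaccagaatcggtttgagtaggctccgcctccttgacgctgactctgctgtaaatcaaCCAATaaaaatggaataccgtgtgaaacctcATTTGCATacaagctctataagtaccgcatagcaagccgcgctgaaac
Hist1h4d: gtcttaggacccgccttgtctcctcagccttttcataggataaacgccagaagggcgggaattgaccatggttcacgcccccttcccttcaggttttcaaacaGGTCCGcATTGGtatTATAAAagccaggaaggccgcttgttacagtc
Hist1h4i: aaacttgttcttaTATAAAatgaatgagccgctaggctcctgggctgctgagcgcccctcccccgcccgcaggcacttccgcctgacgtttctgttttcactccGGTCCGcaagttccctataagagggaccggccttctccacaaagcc
Hist1h1c: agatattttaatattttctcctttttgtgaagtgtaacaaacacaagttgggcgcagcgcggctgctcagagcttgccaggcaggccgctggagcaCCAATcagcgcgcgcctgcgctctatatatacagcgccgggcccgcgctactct

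The 250 bases before the start separated the classes by these letters. CCAAT was present before all 6 H1 genes, all 18 H2A genes, all 16 H2B genes with a sequence and 8 of 10 H3 genes, but before 3 of 12 H4 genes, against 33.85% of all 32851 promoters. The octamer was present before 7 of 18 H2A and 7 of 16 H2B genes and before none of the H1, H3 or H4 genes, against 1.601% of all promoters; the windows of facing H2A and H2B genes overlap, so many of these matches are shared. GGTCCG was present before 9 of 12 H4 genes, 1 H2B gene, 1 H3 gene and no H1 or H2A gene, against 6.718% of all promoters, and TATAAA before 29 of the 62 genes, against 12.37%. A match is a run of letters and not a measured binding site, and the absence of one says only that these letters are not in this window.

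Depth differed between the replicates. The table held FPKM (fragments scaled to the length of the gene and the depth of the library), from which whole reads could be recovered: 100% of the low values of short genes lay within 0.1 read of a whole number in every library, and the recovered depths were 44.4 to 61.2 M reads (M for 1000000) in replicate 1 and 7.96 to 11.1 M reads in replicate 2. The labels state a depth of over 50 M reads sequenced for each library; the recovered depth is the total by which the FPKM were scaled, and why the figures differ was not tested. In a gene of 311 bases, the listed length of 8 of the H4 genes, 1 read was worth 0.0526 to 0.0725 FPKM in replicate 1 and 0.289 to 0.404 FPKM in replicate 2. Low members therefore rest on a handful of reads in replicate 2: 11 of the members tested were listed at 0 in at least 1 library of replicate 2, 9 of them at 180 min, where a count of 0 allows up to 0.919 to 1.21 FPKM (3 reads, counting error only). The sum of 8 macrophage markers was 99.6, 160, 83.5 and 58.7 FPKM at 0, 20, 60 and 180 min in replicate 1 and 75.8, 113, 64.0 and 50.5 FPKM in replicate 2. It was highest at 20 min and lowest at 180 min in both, and lower at 60 and 180 min than at 0 min, as the histone genes were; its part in their values was not tested. Over the libraries, the sums for neutrophil, B cell, T and NK cell, dendritic cell, stromal, erythroid and mast cell markers were at most 2.45, 1.27, 0.943, 0.102, 1.04, 0.13 and 0.017 FPKM. In these bulk libraries, fewer cells that transcribe a histone gene and less transcription per cell cannot be told apart.

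Nascent RNA of the histone genes was highest before LPS and lowest at 60 or 180 min. All 68 genes together took 773 RPM (recovered reads per 1000000 reads of the library) at 0 min in replicate 1, then 503 at 20 min, 383 at 60 min and 389 at 180 min. Replicate 2 gave 497, 328, 281 and 187 RPM at the same times. In both replicates each later library was thus below its own 0 min library, and the libraries of replicate 2 were below those of replicate 1 at the same time. These sums favour long listed spans. At 0 min in replicate 1, Hist1h2be (37454 bases) held 3065 and Hist1h2bc (8281 bases) 2852 of the 47281 reads. Reads where members share bases can also count more than once. The summed FPKM was 835, 589, 472 and 431 in replicate 1 and 456, 328, 271 and 171 in replicate 2.

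**Figure D1:**
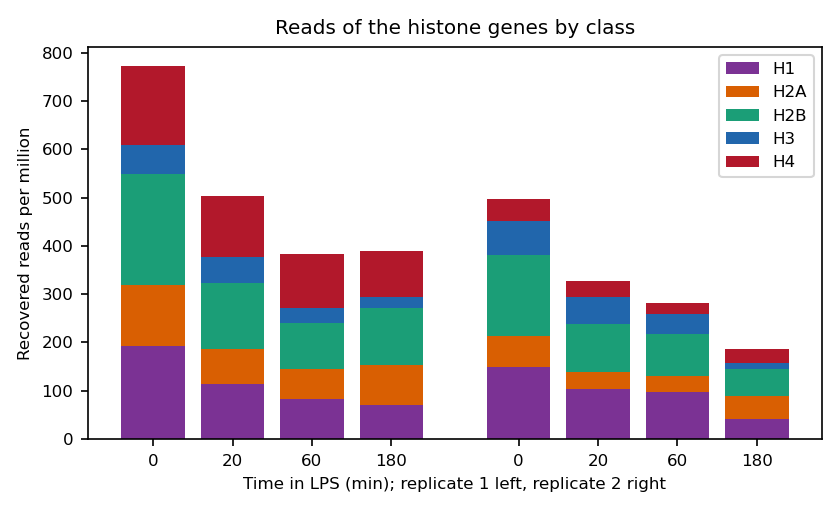
Recovered RPM (vertical axis) of all 68 histone genes, stacked by class, in the 8 libraries (horizontal axis, time in LPS in min; replicate 1 left, replicate 2 right). The whole bar is tallest at 0 min in both replicates (773 and 497), and the H4 part is larger in replicate 1 than in replicate 2 at every time.

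By class, H1 genes took 193, 114, 83.4 and 71.2 RPM at 0, 20, 60 and 180 min in replicate 1 and 150, 104, 98.3 and 41.8 in replicate 2. H3 genes, which wrap DNA in the nucleosome core together with H4, took 60.6, 53.6, 31.9 and 21.9 RPM in replicate 1 and 71.2, 55.7, 40.5 and 12.6 in replicate 2. H4 genes took 164, 126, 111 and 95.5 in replicate 1 against 45.0, 33.8, 22.7 and 28.1 in replicate 2. The H3 total was higher in replicate 2 than in replicate 1 at 0, 20 and 60 min and the H1 total at 60 min, while those of H2A, H2B and H4 were higher in replicate 1 at every time. The ratio between the replicates was largest for H4.

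A few genes supplied much of the signal. The 12 genes with the highest mean FPKM held 40.1% to 58.9% of all histone gene reads in a library. Of the 68 genes, 48 averaged 0.5 FPKM or more across the libraries and were tested: 5 H1, 11 H2A, 12 H2B, 9 H3 and 11 H4 genes. That filter uses the mean over all libraries, and a gene that is high at 1 time can pass through that time alone. Just inside it stood Hist3h2ba at a mean of 0.527 FPKM and Hist1h4a at 0.694, and just outside it Hist1h3b at 0.478 and Hist1h2bm at 0.453.

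**Figure D2:**
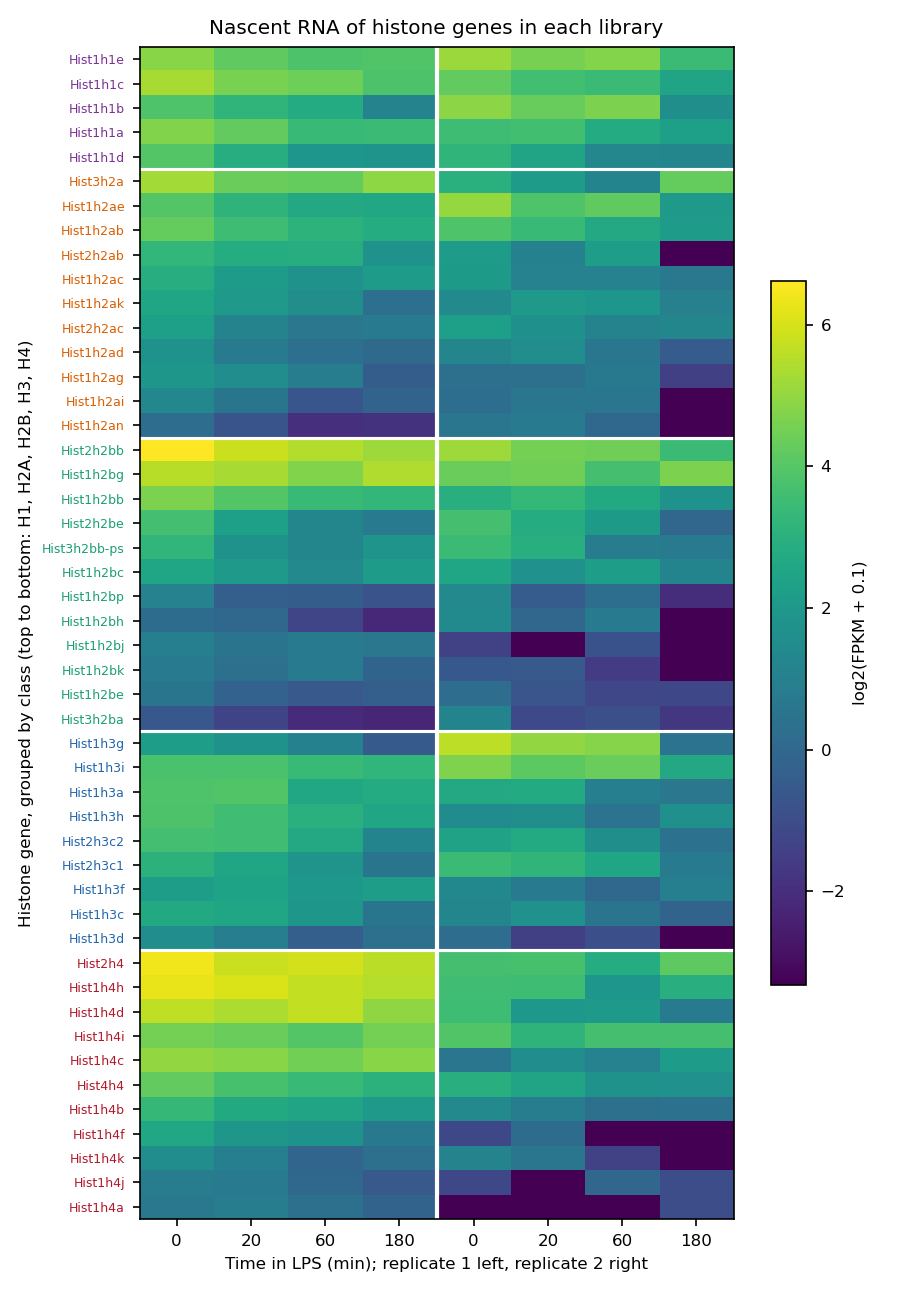
Level of the 48 tested histone genes (rows, grouped by class from H1 at the top to H4 at the bottom and ordered by mean within a class) in the 8 libraries (columns, time in LPS in min, replicate 1 left of the white line) as log2(FPKM + 0.1). Most rows darken from 0 to 180 min in both replicates, while the H4 rows are brighter in replicate 1 than in replicate 2.

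At 20 min the histone genes were slightly lower and none passed the test. The median change of the 48 tested genes from 0 min was -0.54 on the log2(FPKM + 0.1) scale, against -0.20 over all 8343 genes tested. Of the 48 changes 41 were below 0, as were 6302 of the 8343 over all genes. With limma at an adjusted p of 0.05, 0 of 48 were called in the unpaired fit and 0 in a fit blocked on replicate, while 3 were lower and none higher at an unadjusted p under 0.05, which 5.97% of all genes passed. Over all genes the unpaired fit called 0% lower and 0.108% higher at this time, and the blocked fit 0.683% lower and 2.3% higher. The voom fit on recovered reads also called 0, against 0% of all genes called lower, and with the block it called 11 lower, against 15.6%. In 29 of 48 genes (60.4%) both replicates were below their own 0 min library, against 63.2% of all genes, and in 13 (27.1%) both 20 min values were below both 0 min values, against 29.6%. These last shares of 60.4% and 27.1% lie near those of all genes.

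At 60 min the median change of the histone genes was -0.93, against -0.29 over all genes, and 4 of 48 (8.33%) fell in the unpaired fit, near the 8.8% of all genes called lower. The 4 were Hist3h2bb-ps, Hist2h2be, Hist1h1d and Hist2h2ac. The 2 replicates shared their deviations across times, and with that pairing as a block 23 of 48 (47.9%) fell, against 27.9% of all genes. No histone gene rose in either limma fit, against 5.07% and 11.7% of all genes called higher. At an unadjusted p under 0.05 in the unpaired fit, 10 of 48 were lower and none higher, and 28.5% of all genes passed in 1 direction or the other. In 39 genes (81.2%) both replicates were below their own 0 min library, against 57.7% of all genes, and in 18 (37.5%) both 60 min values were below both 0 min values, against 36.7%. For the counts with a library left out, no share of all genes was taken. The unpaired count was 0 without either 0 min library, 1 without either 60 min library and 2 without replicate 2 of 20 min.

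At 180 min the median change was -1.59, against -0.69 over all genes, and 14 of 48 (29.2%) fell in the unpaired fit, against 23.4% of all genes. In the blocked fit 36 of 48 (75.0%) fell, against 51.6% of all genes. None rose in either limma fit, against 8.93% and 14.2% of all genes. At an unadjusted p under 0.05 in the unpaired fit, 24 of 48 were lower and none higher, and 45.8% of all genes passed in 1 direction or the other. For the counts with a library left out, no share of all genes was taken. Without replicate 1 or replicate 2 of 0 min the unpaired count was 6 and 8, and without replicate 2 of 180 min it was 3. Only Hist2h3c1, Hist2h2be and Hist1h2bp were called in the unpaired fit whichever of the 8 libraries was left out. The other 11 calls were lost without replicate 2 of 180 min (adjusted p = 0.0621 to 0.201). Of the 14, 8 were lost without either 0 min library, 4 without replicate 1 of 180 min and 2 without either 20 min library. In 40 of 48 genes (83.3%) both replicates were below their own 0 min library, against 69.1% of all genes, and in 27 (56.2%) both 180 min values were below both 0 min values, against 53.1%.

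All genes together moved down on this scale, so the changes were also taken relative to that shift. Median-ratio scaling, which sets the typical gene to no change, brought the median over all genes to 0.01 at 60 min and -0.01 at 180 min. The median of the histone genes was then -0.61 at 60 min and -0.87 at 180 min. With this scaling and the block, 10 histone genes (20.8%) fell and none rose at 60 min, against 20.3% and 19.5% of all genes. At 180 min 23 (47.9%) fell and 2 (4.17%) rose, against 25.8% and 26.1% of all genes. The 2 that rose were Hist1h2bg and Hist1h4c. Without the block, this scaling kept 2 of the 4 unpaired calls at 60 min (Hist1h1d and Hist3h2bb-ps) and 6 of the 14 at 180 min (Hist1h1d, Hist2h3c1, Hist2h3c2, Hist2h2be, Hist1h2bp and Hist1h2bh). The share of all genes called under this scaling without the block was not taken, so these counts are not set against all genes. At 180 min 6 genes that were below 0 without the scaling were above 0 with it: Hist2h4, Hist1h4h, Hist1h4i, Hist1h4j, Hist1h3f and Hist1h3h.

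Most members had their highest mean at 0 min. The mean of the 2 replicates was highest at 0 min in 41 of 48 genes, at 20 min in 5 and at 180 min in 2, and it was lowest at 180 min in 34, at 60 min in 13 and at 20 min in 1. Of all genes tested, 53% had their highest mean at 0 min and 61% their lowest at 180 min. In 22 of the 48 it was lower at each later time than at the one before, against 29.4% of all genes. With the F-test of any difference among the 4 times, 6 of 48 were called in the unpaired fit, against 24.6% of all genes, and 38 in the blocked fit, against 66.1%.

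**Figure D3:**
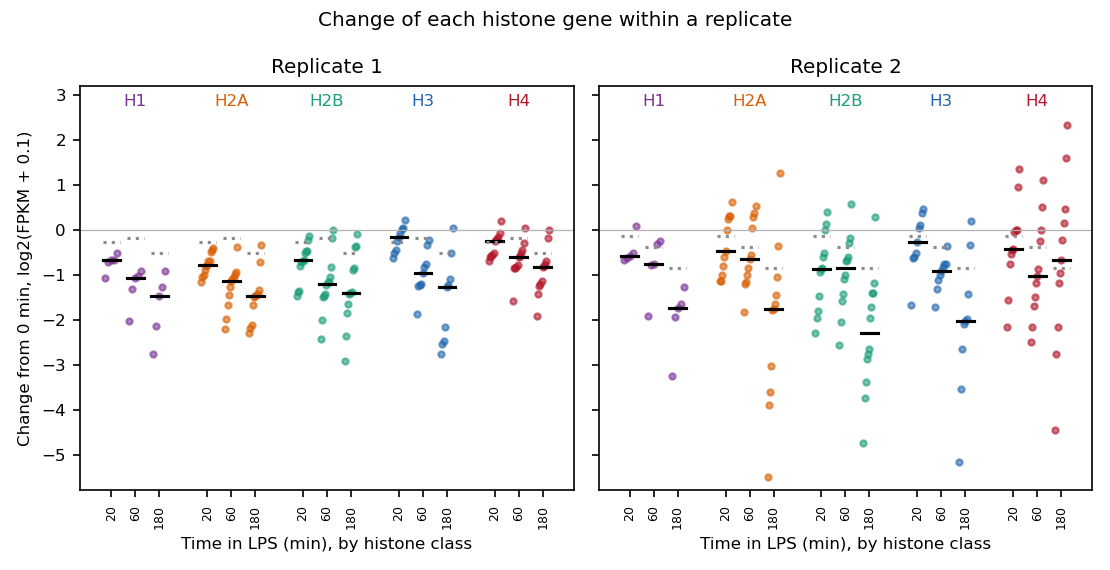
Change of each tested histone gene from its own replicate's 0 min library, log2(FPKM + 0.1) (vertical axis), at 20, 60 and 180 min (horizontal axis) by class, for replicate 1 (left) and replicate 2 (right). Each point is a gene, the black bar is the class median and the dotted grey bar the median of all 8343 genes tested; at 180 min the class medians lie below the dotted bar in both replicates except for H4 in replicate 2.

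By class, at 180 min the unpaired fit called 2 of 5 H1, 5 of 11 H2A, 5 of 12 H2B, 2 of 9 H3 and 0 of 11 H4 genes lower, and the blocked fit 5, 10, 9, 7 and 5, where 23.4% and 51.6% of all genes were called lower. The median changes were -1.61 for H1, -1.66 for H2A, -1.70 for H2B, -1.79 for H3 and -0.72 for H4. After median-ratio scaling the H4 median was 0.00, and the other 4 were -0.87, -0.97, -1.08 and -1.09. Whether the classes differ was not tested. By position, the unpaired and blocked fits called 8 and 27 of 37 Hist1 genes, 4 and 6 of 7 Hist2 genes, 2 and 2 of 3 Hist3 genes, and 0 and 1 of the 1 Hist4 gene.

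Linker histone H1 sits on the DNA that enters and leaves the nucleosome and helps to fold chromatin. Hist1h1d measured 15.3, 7.19, 3.66 and 3.41 FPKM at 0, 20, 60 and 180 min in replicate 1 and 8.91, 5.52, 2.29 and 2.24 FPKM in replicate 2. Both libraries of each later time were below both 0 min libraries, and the level had settled by 60 min. Its change was -1.97 ± 0.42 (SE) at 60 min (limma, adjusted p = 0.0248) and -2.04 ± 0.42 at 180 min (adjusted p = 0.0121). With 1 library left out, the adjusted p of these 2 changes ran up to 0.154 (without replicate 1 of 0 min) and 0.0798 (without replicate 2 of 180 min).

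Hist1h1b was slower. It measured 14.5, 9.02, 6.9 and 2.05 FPKM in replicate 1 and 29.4, 19.7, 24.9 and 3.0 FPKM in replicate 2. At 60 min the values overlapped those at 0 min, and at 180 min both were far below all others. The change at 180 min was -3.01 ± 0.71 (adjusted p = 0.0196; 0.0939 without replicate 2 of 0 min), and at 60 min -0.65 ± 0.71 (adjusted p = 0.625).

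The H1 genes with the highest levels were Hist1h1e and Hist1h1c. Hist1h1e measured 28.8, 18.1, 14.1 and 15.2 FPKM in replicate 1 and 34.3, 23.8, 27.5 and 10.9 FPKM in replicate 2. Hist1h1c, one of the histone genes also known for transcripts outside DNA replication, measured 39.8, 24.1, 21.0 and 14.2 FPKM in replicate 1 and 18.6, 12, 10.7 and 5.48 FPKM in replicate 2. For both, the 2 values at 180 min were below both values at 0 min. Neither change at 180 min passed the unpaired test (Hist1h1e -1.28 ± 0.42, adjusted p = 0.0559; Hist1h1c -1.61 ± 0.66, adjusted p = 0.103), and both passed with the block (adjusted p = 0.0069 and 0.000258). With the block and median-ratio scaling the change of Hist1h1e was -0.54 and no longer passed (adjusted p of 0.206). Hist1h1e shares bases with the listed span of Hist1h2be on the same strand, which runs over 37454 bases, so part of their reads cannot be assigned to 1 of them. The testis-specific linker histone gene Hist1h1t reached 0.574 and 0.12 FPKM at 0 min and was not tested.

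H2A and H2B form dimers that join the H3 and H4 tetramer in the nucleosome core. Hist2h2be, an H2B gene studied in olfactory neurons, has a listed span of 2617 bases, against 380 for the H2B gene Hist1h2bh. It was taken by name, and whether its transcription depends on DNA replication was not tested. Hist2h2be measured 12.5, 4.77, 2.26 and 1.57 FPKM in replicate 1 and 12.8, 6.98, 4.15 and 0.864 FPKM in replicate 2. The replicates were close at 0 min, and the values were lower at each later time in both, with no overlap between 0 min and any later time. The change was -2.01 ± 0.43 at 60 min (limma, adjusted p = 0.0252; 0.118 without replicate 1 of 0 min) and -3.33 ± 0.43 at 180 min (adjusted p = 0.00241; up to 0.021 with 1 library left out).

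Hist3h2bb-ps, annotated by its symbol as a pseudogene, measured 9.3, 3.3, 2.25 and 3.45 FPKM in replicate 1 and 10.8, 7.55, 1.74 and 1.62 FPKM in replicate 2. All 6 later values were below both 0 min values. Its changes were -2.28 ± 0.51 at 60 min (adjusted p = 0.0285) and -2.03 ± 0.51 at 180 min (adjusted p = 0.0235), with an adjusted p of 0.135 without replicate 2 of 60 min and 0.134 without replicate 2 of 180 min. Hist3h2ba was near the detection limit: it measured 0.555, 0.313, 0.132 and 0.109 FPKM in replicate 1 and 2.11, 0.354, 0.435 and 0.203 FPKM in replicate 2. These values rest on 21, 11, 4 and 3 reads and on 12, 2, 3 and 1 reads. Its change at 180 min was -2.26 ± 0.65 (adjusted p = 0.038; 0.162 without replicate 2 of 0 min). It is the 1 tested member whose mean over the 6 later libraries, 0.258 FPKM, lay below the filter of 0.5 FPKM, so it was tested through its 0 min level alone and a fall was favoured by that choice. Without it the unpaired count at 180 min is 13. Hist3h2ba was also called lower with the block at 60 and 180 min (limma, adjusted p = 0.00658 and 0.00109), and still after median-ratio scaling. The blocked counts at these times, with and without that scaling, and the Hist3 counts at 180 min include it and share this limit.

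Hist2h2bb had the highest mean FPKM of all members. It measured 97.8, 55.9, 43.6 and 36.0 FPKM in replicate 1 and 35.5, 23.4, 21.7 and 10.7 FPKM in replicate 2. The order of the times was the same in both replicates, but the replicates stood so far apart that 0 and 180 min overlapped. At 180 min the level was 36.8% and 30.2% of the 0 min level within each replicate. The change of -1.58 ± 0.80 did not pass the unpaired test (adjusted p = 0.167) and passed with the block (adjusted p = 0.000598).

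Hist1h2bh and Hist1h2bp gave low counts. Hist1h2bh measured 1.03, 0.926, 0.323 and 0.119 FPKM in replicate 1 and 2.58, 0.864, 1.66 and 0 FPKM in replicate 2. The value of 0 allows up to 0.992 FPKM, below both 0 min values. The fitted change of -3.56 ± 0.76 at 180 min (adjusted p = 0.0136; 0.1 without replicate 2 of 180 min) depends on the pseudocount added to that 0. Hist1h2bp, named here after its values were seen because its call held whichever library was left out, measured 2.0, 0.714, 0.653 and 0.484 FPKM in replicate 1 and 2.47, 0.634, 1.09 and 0.146 FPKM in replicate 2. All of its later values were below both 0 min values, and its change at 180 min was -2.61 ± 0.46 (adjusted p = 0.00683; up to 0.0419 with 1 library left out).

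Among the H2A genes the calls at 180 min were Hist1h2an, Hist1h2ae, Hist1h2ad, Hist1h2ab and Hist2h2ac, with changes of -3.01, -2.18, -1.66, -1.59 and -1.27. Hist1h2an measured 1.08, 0.494, 0.157 and 0.173 FPKM in replicate 1 and 1.39, 1.68, 0.917 and 0 FPKM in replicate 2, where the 0 allows up to 0.961 FPKM. Its 180 min values were below both 0 min values, with an SE of 0.83 and an adjusted p of 0.0329 (0.199 without replicate 2 of 180 min). Hist2h2ab, the neighbour of Hist2h2ac, measured 9.47, 6.91, 7.21 and 3.34 FPKM in replicate 1 and 4.45, 1.95, 4.58 and 0 FPKM in replicate 2. The 0 again allows up to 0.961 FPKM. Its fitted change of -3.49 ± 1.51 did not pass the unpaired test (adjusted p = 0.117) and passed with the block (adjusted p = 0.00684).

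H3 carries much of the histone tail modification that is read in chromatin studies. The largest change of any member was that of Hist1h3g, which measured 4.63, 3.37, 1.96 and 0.597 FPKM in replicate 1 and 49.5, 31.9, 28.0 and 1.28 FPKM in replicate 2. Replicate 2 was far above replicate 1 at 0, 20 and 60 min, and both replicates were low at 180 min. The 180 min level was 12.9% and 2.58% of the 0 min level, from 139 and 223 reads to 13 and 5. The change of -3.97 ± 1.66 did not pass the unpaired test (adjusted p = 0.107) and passed with the block (adjusted p = 0.000358).

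Hist2h3c1, named after its values were seen for the same reason as Hist1h2bp, measured 8.25, 5.74, 3.44 and 1.34 FPKM in replicate 1 and 10.9, 9.0, 5.76 and 1.65 FPKM in replicate 2. The values were lower at each later time in both replicates, and at 180 min they stood at 16.2% and 15.1% of 0 min. Its change was -2.60 ± 0.39 (adjusted p = 0.00406; up to 0.0304 with 1 library left out). The other H3 call was Hist2h3c2 at -2.23 ± 0.59 (adjusted p = 0.0282; 0.165 without replicate 2 of 180 min).

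Hist1h3i and Hist1h3a did not pass the unpaired test at 60 or 180 min. Hist1h3i measured 13.3, 13.4, 10.5 and 9.31 FPKM in replicate 1 and 26.0, 17.0, 20.3 and 6.25 FPKM in replicate 2. Hist1h3a measured 14.5, 14.9, 6.11 and 6.77 FPKM in replicate 1 and 6.34, 6.57, 1.85 and 1.41 FPKM in replicate 2. Hist1h3a was thus level at 20 min and lower by 60 min in both replicates, with a change of -1.48 ± 0.90 at 60 min (adjusted p = 0.349 unpaired and 0.0032 with the block). For Hist1h3i the 180 min change was -1.27 ± 0.49 (adjusted p = 0.0867 unpaired and 0.0126 with the block), and with the block and median-ratio scaling it was -0.54 (adjusted p of 0.24).

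H4 is the least variable core histone in sequence, and its genes were those in which the replicates differed most. All 11 tested H4 genes were higher in replicate 1 than in replicate 2 at each of the 4 times, against 61.6%, 55%, 67.5% and 78.5% of all genes at 0, 20, 60 and 180 min. The median difference of replicate 1 from replicate 2 over the H4 genes was 2.10, 2.09, 3.10 and 1.66 on the log2(FPKM + 0.1) scale, against 0.20, 0.07, 0.35 and 0.53 over all genes. Depth also differed between the replicates, and its part in the H4 values was not tested.

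**Figure D4:**
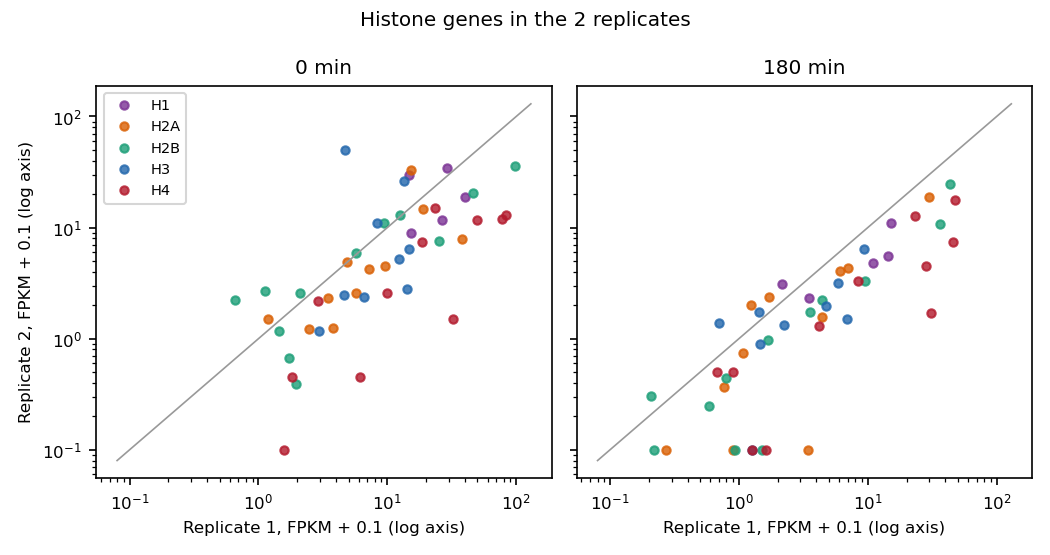
Level of the 48 tested histone genes in replicate 1 (horizontal axis) and replicate 2 (vertical axis) at 0 min (left) and 180 min (right), FPKM + 0.1 on log axes, coloured by class, with the line of equal values. All 11 H4 genes lie below the line in both panels, and the H3 gene far above it at 0 min is Hist1h3g.

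Hist2h4, the H4 gene with the highest mean level, measured 83.4, 55.5, 60.6 and 47.3 FPKM in replicate 1 and 12.9, 12.9, 6.99 and 17.7 FPKM in replicate 2. Hist1h4h measured 77.2, 66.1, 51.6 and 45.8 FPKM in replicate 1 and 11.9, 11.5, 3.58 and 7.37 FPKM in replicate 2. Replicate 1 was above replicate 2 by several fold in both genes, and the times overlapped. At 180 min Hist2h4 stood at 56.7% and 138% of its 0 min level, and Hist1h4h at 59.3% and 62.0%. Their changes at 180 min were -0.18 ± 1.33 (adjusted p = 0.925) and -0.72 ± 1.62 (adjusted p = 0.747), and neither passed with the block (adjusted p = 0.675 and 0.0753). The 60 min change of Hist1h4h was -1.14 ± 1.62 (adjusted p = 0.718 unpaired, 0.0206 with the block, 0.103 with the block and median-ratio scaling).

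Hist1h4d measured 49.9, 41.8, 51.3 and 30.8 FPKM in replicate 1 and 11.6, 3.87, 4.04 and 1.62 FPKM in replicate 2. The replicates differed at 60 min, where replicate 1 was at 103% and replicate 2 at 34.9% of 0 min. Replicate 2 rests on 33, 11, 14 and 4 reads. Its change at 180 min was -1.73 ± 1.86 (adjusted p = 0.486 unpaired and 0.00594 with the block), and with median-ratio scaling as well as the block it was -1.01 (adjusted p of 0.0744).

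Hist1h4i measured 23.2, 20.1, 15.3 and 23.1 FPKM in replicate 1 and 14.9, 8.78, 12.6 and 12.7 FPKM in replicate 2, and was at 99.5% and 85.2% of 0 min at 180 min. Hist1h4c measured 32.3, 29.0, 22.4 and 28.4 FPKM in replicate 1 and 1.4, 2.82, 2.02 and 4.44 FPKM in replicate 2, the latter from 4, 8, 7 and 11 reads. Neither gene passed the test at 180 min in the unpaired fit (adjusted p = 0.872 and 0.789) or with the block (adjusted p = 0.69 and 0.111). Hist1h4c passed as higher with the block after median-ratio scaling (1.43, adjusted p = 0.0321).

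Hist4h4, which stands alone on its chromosome, measured 18.4, 12.9, 10.7 and 8.29 FPKM in replicate 1 and 7.39, 5.44, 3.22 and 3.19 FPKM in replicate 2. Both replicates were lower at each later time than at the one before, and ended at 45.0% and 43.1% of 0 min. The change of -1.17 ± 0.80 at 180 min had an adjusted p of 0.291 unpaired and 0.00155 with the block, and was -0.43 (adjusted p of 0.155) once median-ratio scaling was added to the block. Hist1h4k, at the low end, measured 2.79, 1.87, 0.856 and 1.16 FPKM in replicate 1 and 2.1, 1.41, 0.289 and 0 FPKM in replicate 2, the 0 allowing up to 1.21 FPKM. Its change at 60 min was -2.05 ± 1.08 (adjusted p = 0.273 unpaired and 0.0383 with the block; 0.111 with the block and median-ratio scaling).

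Facing gene pairs gave a closer view, because both members lie beside the same short stretch of DNA. Among the 61 members listed in a single copy, 12 pairs were transcribed away from each other across a gap under 1000 bases: 11 paired an H2A with an H2B gene and 1 an H2B with an H3 gene. In the mm9 coordinates the gaps were 172 to 699 bases long with a median of 279. The gap of Hist2h2ac and Hist2h2be was 276 bases there, while the stretch printed above for this pair, from GRCm38.p6, is 191 bases long. In 7 pairs both members were tested.

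The pair whose gap is shown first is Hist1h2ae and Hist1h2bg, 179 bases apart. Hist1h2ae, described because it is the partner of Hist1h2bg, measured 15.2, 8.73, 6.24 and 6.0 FPKM in replicate 1 and 32.7, 14.8, 18.1 and 3.93 FPKM in replicate 2. Hist1h2bg measured 46.1, 39.4, 26.1 and 43.4 FPKM in replicate 1 and 20.3, 22.1, 12.7 and 24.8 FPKM in replicate 2. At 180 min Hist1h2ae stood at 39.4% and 12% of its 0 min level and Hist1h2bg at 94.1% and 122%. The change of Hist1h2ae was -2.18 ± 0.63 (limma, adjusted p = 0.0378; 0.201 without replicate 2 of 180 min) and that of Hist1h2bg 0.10 ± 0.60 (adjusted p = 0.905).

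The pair 172 bases apart on chromosome 11 had the same arrangement of values. Hist3h2a measured 37.7, 20.4, 19.1 and 30.0 FPKM in replicate 1 and 7.79, 4.4, 2.12 and 18.9 FPKM in replicate 2. It was lowest at 60 min in both replicates and at 79.6% and 242% of its 0 min level at 180 min, when its partner Hist3h2bb-ps was at 37.1% and 15.0%. The change of Hist3h2a was -1.40 ± 1.24 at 60 min (adjusted p = 0.529 unpaired and 0.0401 with the block; 0.171 with the block and median-ratio scaling) and 0.47 ± 1.24 at 180 min (adjusted p = 0.784 and 0.389).

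In the pair on chromosome 3 both members were called lower in the unpaired fit. Hist2h2ac measured 4.79, 2.08, 1.42 and 1.62 FPKM in replicate 1 and 4.77, 3.09, 2.08 and 2.26 FPKM in replicate 2. It stood at 33.9% and 47.4% of 0 min at 180 min, when its partner Hist2h2be was at 12.5% and 6.77%. The change of Hist2h2ac was -1.42 ± 0.34 at 60 min (adjusted p = 0.0376; 0.176 without replicate 1 of 0 min) and -1.27 ± 0.34 at 180 min (adjusted p = 0.0305; 0.127 without the same library). After median-ratio scaling these changes were -1.10 (adjusted p of 0.204 unpaired and 0.0112 with the block) and -0.55 (0.47 and 0.0932).

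**Figure D5:**
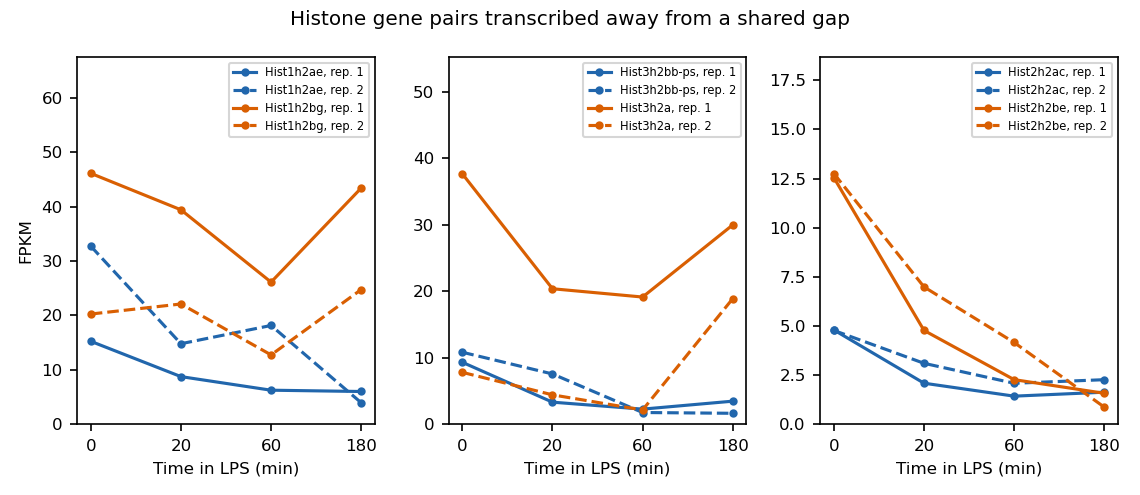
FPKM (vertical axis) at 0, 20, 60 and 180 min of LPS (horizontal axis, times evenly spaced) of 3 pairs of histone genes transcribed away from a shared gap; colours mark the 2 genes of a pair, solid lines replicate 1 and dashed lines replicate 2. Hist1h2bg and Hist3h2a are higher at 180 than at 60 min in both replicates, while their partners end below their 0 min level.

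The other 4 tested pairs varied. Hist1h2an and Hist1h2bp were both low at 180 min, at 16.0% and 0% and at 24.2% and 5.92% of 0 min. Hist1h2ac was at 60.2% and 35.2% and Hist1h2bc at 76.7% and 36.6%. Hist1h2ag was at 18.1% and 23.0% and Hist1h2bj at 77.0% and 0%, the latter from 1 read at 0 min. Across the longest gap, Hist1h2bh was at 11.5% and 0% and the H3 gene Hist1h3f at 102% and 78.5%. Members of a pair thus ended near each other in some pairs and far apart in others; no test of the difference within a pair was run, and whether reads were assigned by strand is not given in the sources used here.

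A return from 60 to 180 min was seen in a minority. In 7 of 48 tested genes (14.6%) the 180 min value was above the 60 min value in both replicates, against 19.3% of all genes, so this was not more frequent among the histone genes. They were Hist1h2bg, Hist3h2a, Hist1h4i, Hist1h4c, Hist1h3f, Hist2h2ac and Hist1h2be, of which Hist1h3f, Hist2h2ac and Hist1h2be were chosen after their values were seen. The ratio of 180 to 60 min was 1.66 and 1.94 in Hist1h2bg and 1.57 and 8.89 in Hist3h2a. It was 1.14 and 1.09 in Hist2h2ac and 1.18 and 1.02 in Hist1h2be, so for these the difference was small.

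The 20 genes that were not tested added little. Hist1h2aa, a testis H2A gene, was at 0 in all 8 libraries, and its facing partner Hist1h2ba, the testis H2B gene, had 1 read in each of 2 libraries. Over all 68 members, 30 were at 0 in at least 1 library. The table listed 7 members with more than 1 copy in the genome, all of them below the filter, and 10 members shared bases with another listed gene. For such near-identical or overlapping genes the assignment of reads is uncertain. The span of 46 of the 68 members was a multiple of 3 bases long, with 312 bases for 8 H4 genes, 393 for 7 H2A genes and 381 for 7 H2B genes, so many of these models cover the coding sequence alone.

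Genes that work with the histone genes were examined as 4 lists, in which no gene was called at 20 min in the unpaired fit. Of 24 tested S phase and proliferation genes, 20 fell at 180 min in the unpaired fit and 22 in the blocked fit, with a median change of -2.43, against 23.4% and 51.6% of all genes called lower. At 60 min 2 and 15 fell, against 8.8% and 27.9% of all genes, with a median of -1.12, against -0.29. The 2 of 24 lie near the share of all genes. The blocked fit called 1 of the 24 higher at 60 min and 1 at 180 min, against 11.7% and 14.2% of all genes. The largest changes were those of E2f2 and E2f1, transcription factors of the entry into S phase, Cdk2, a kinase of that step, and the cyclin gene Ccne2. From 2.22 and 2.16 FPKM before LPS, E2f2 came to 0.071 and 0.016 FPKM at 180 min (-4.02 ± 0.30, adjusted p = 0.000568). Changes of -3.13, -3.10 and -3.06 were found for E2f1, Cdk2 and Ccne2 (adjusted p = 0.0143, 0.00283 and 0.0226). Mki67, a marker of cycling cells and the gene with the highest mean among those not called, went from 1.47 and 2.59 FPKM before LPS to 5.17 and 3.17 FPKM (limma, adjusted p of 0.125 unpaired and 0.0312 with the block). Gins1, of the complex that starts replication forks, went from 0.791 and 2.68 FPKM to 0.317 and 1.17 FPKM (adjusted p of 0.353 and 0.00451).

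Replication-independent histones are made throughout the cell cycle and replace histones outside S phase. Of 8 tested genes of this kind, 2 fell at 180 min in the unpaired fit, and 4 fell and 1 rose in the blocked fit, with a median change of -0.68. These counts lie near the 23.4% and 51.6% of all genes called lower, and the median near the -0.69 of all genes. H2afv, which encodes an H2A.Z protein, went from 0.989 and 1.05 FPKM to 0.085 and 0.109 FPKM (-2.51 ± 0.34, adjusted p = 0.00281), and H1f0, the linker histone of resting cells, changed by -1.88 ± 0.36 (adjusted p = 0.00937). H3f3b, which encodes the replacement histone H3.3, went from 18.7 and 7.46 FPKM to 34.1 and 19.4 FPKM (1.11 ± 0.70; adjusted p of 0.252 unpaired and 0.00258 with the block). H2afx, which marks DNA breaks when phosphorylated, went from 17.4 and 6.43 FPKM to 11.9 and 2.68 FPKM (adjusted p of 0.517 and 0.0208).

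Among factors of histone gene transcription and 3' end formation, 24 were tested, and 1 rose and 3 fell at 180 min in the unpaired fit, with a median change of -0.78; the blocked fit called 3 higher and 15 lower. Of all genes the unpaired fit called 23.4% lower and 8.93% higher and the blocked fit 51.6% and 14.2%, with a median change of -0.69; after median-ratio scaling the median of the list was -0.12. Casp8ap2, a partner of NPAT, changed by -1.77 ± 0.39 (adjusted p = 0.0158), Cpsf3, the nuclease that makes the 3' cut, by -1.61 ± 0.29 (adjusted p = 0.00769), and Eri1, an exonuclease that acts on the stem-loop, by -1.49 ± 0.35 (adjusted p = 0.0189). Zcchc6, which adds uridines to RNA ends, rose by 1.35 ± 0.30 (adjusted p = 0.015); its relative Zcchc11 was called at 60 min alone, at -1.45 (adjusted p = 0.0492). Slbp, which binds the stem-loop, went from 1.87 and 4.84 FPKM to 0.821 and 0.626 FPKM (adjusted p of 0.0514 unpaired and 0.00223 with the block). Hinfp, whose protein binds the H4 element printed above, went from 2.06 and 1.3 FPKM to 2.79 and 2.78 FPKM (adjusted p of 0.131 and 0.0215); Slbp and Hinfp were chosen after their values were seen. Lsm10, of the U7 particle, and Srrt, a cap-binding partner, had the highest means among those not called, with changes of -0.17 ± 1.01 and -0.53 ± 0.31 (adjusted p of 0.904 and 0.218).

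Of 15 tested histone chaperones and assembly factors, 8 fell and 1 rose at 180 min in the unpaired fit, and 12 fell and 1 rose in the blocked fit, with a median change of -1.27. The shares of all genes called lower were 23.4% and 51.6%, those called higher 8.93% and 14.2%, and the median after median-ratio scaling was -0.59 for the list. Asf1b and Nap1l1, which carry new histones, changed by -2.44 ± 0.47 (adjusted p = 0.0098) and -2.38 ± 0.45 (adjusted p = 0.00884), followed by Rbbp7 at -1.64 and Hira at -1.62. Asf1a and Nap1l4, with the highest means among those not called, changed by -0.72 ± 1.20 and -0.87 ± 0.33 (adjusted p of 0.659 and 0.0834). Daxx, a chaperone of H3.3, went the other way, from 3.04 and 3.23 FPKM to 19.9 and 32.0 FPKM (2.97 ± 0.33, adjusted p = 0.00145). The lists were drawn up with earlier results of these data known, and their counts describe these libraries.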

How the data were processed

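GRO-seq values of 8 libraries, 2 replicates at each of 4 times, were taken from 1 deposited table of FPKM per gene; per the file headers these are values of RefSeq genes computed by the authors. Per the submitters' processing notes CASAVA 1.7, HOMER 4.6 and 4.7, Bowtie2 2.0.5 and build mm9 were used; what each did, and how genes were counted and on which strand, is not stated in the labels. Another 8 columns of a different treatment were not used.

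The 8343 of 22753 genes averaging 0.5 FPKM or more were tested as log2(FPKM + 0.1), which understates fold changes between low values above 0. Where a value is 0, the size of the change rests on the added 0.1 and can be overstated. The median change of the histone genes at 180 min was -1.63 with 0.01 added and -1.05 with 1 added. The test was limma 3.58.1 in R 4.3.3, with all 4 groups in 1 fit, a variance trend, and Benjamini-Hochberg adjustment over all genes, called at an adjusted p of 0.05; n = 2 per group. An exact permutation test of 2 against 2 cannot go below p = 0.333. The labels number the replicates 1 and 2 at each time; the difference between them was correlated between every pair of times (0.59 to 0.88 over all genes), so a fit blocked on that number stands beside the unpaired one. The procedure was tested on simulated data.

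Described by value were the 12 members with the highest mean, the highest member of each class and cluster, up to 6 called each way per comparison with the largest change in either fit, and, from each list, the largest called and highest uncalled genes, with exceptions stated. Intervals and limits for 0 cover counting error only. The members and lists were chosen with earlier results of these data known. Alternatives covered scaling, pseudocount, filter, variance model, recovered reads, block and each left-out library.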

Additional observations from a re-analysis of the deposited data

How the results depend on the processing

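The median change of the histone genes stayed below 0 at 60 and 180 min in every alternative run; at 20 min it was 0.06 without replicate 2 of 20 min and below 0 in the others. The count of histone genes called moved with the treatment of the replicates and with scaling. With the replicate block the counts were 23 at 60 min, 36 at 180 min and 38 in the F-test over time. With the block and median-ratio scaling they were 10, 25 (23 lower and 2 higher) and 18, and for the last the share of all genes was not taken. Median-ratio scaling alone gave 2, 6 and 2, and the share of all genes called under it was not taken. The voom fit on recovered reads gave 9 at 180 min and 3 in the F-test. With the block it gave 11 at 20 min, where it called 15.6% of all genes lower. It then gave 32 at 60 min, 39 at 180 min and 38 in the F-test. A fit of the compared groups alone gave 1 at 60 min. Apart from the 15.6%, no share of all genes was taken beside these voom and compared-group counts, so they are not set against all genes. The same holds for every count with a library left out, here and above, so a lower count there is not read as a trait of the histone genes. Leaving out 1 library at a time gave 0 to 0 calls at 20 min, 0 to 4 at 60 min, 3 to 15 at 180 min and 1 to 7 in the F-test; where this left 1 library at a time point, it was assumed to vary like the other groups. Among the changes of genes described by value that were recomputed in this way, it turned the sign of 3. None of the 3 was called in the unpaired fit, but all were called lower with the block (limma, adjusted p = 0.0206, 0.00594 and 0.0401 in the order below). Hist1h4h at 60 min ran from -3.05 to 0.76 (0.20 without replicate 1 of 0 min, 0.76 without replicate 2 of 60 min). Hist1h4d at 180 min ran from -3.82 to 0.35 (without replicate 2 of 180 min) and Hist3h2a at 60 min from -2.96 to 0.16 (without replicate 2 of 60 min). The cause was not tested. The pseudocount, the filter, the variance trend and quantile normalization left each count within 1.5 times of its value. Depth limits replicate 2, in which short genes of low level rest on few reads.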
